A study of Mus musculus with 34 samples.

Results

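Matrix metalloproteinases and the tissue inhibitors of metalloproteinases were followed across adipocyte differentiation of 3T3-L1 cells, a mouse preadipocyte line, with and without knockdown of 3 KDM5 histone demethylases. The members were a fixed list of 10 genes, 6 metalloproteinases (Mmp2, Mmp3, Mmp11, Mmp13, Mmp14 and Mmp19) and 4 inhibitors (Timp1, Timp2, Timp3 and Timp4), of 17515 genes in the RNA table. Their peaks were those that the peak tables assign to them by gene name, 7 of 10702 H3K4me3 peaks, 60 of 87525 KDM5A peaks and 7 of 14827 KDM5C peaks.

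RNA and H3K4me3 came from cells given lentiviral shRNA 4 days before induction, either shKdm5ABC, against Kdm5a, Kdm5b and Kdm5c, or the control shLuc. Each was taken at day 0 (cells held past confluency), at 4 hours and at day 2 after induction with dexamethasone, insulin, 3-isobutyl-1-methylxanthine and serum, with 2 libraries a group. KDM5A ChIP came from 3T3-L1 cells at the same 3 times with 2 libraries each, and KDM5C ChIP from day 2 with 2 libraries. No transduction is stated for those ChIP cells, and 1 input library serves both proteins. Transduction of the RNA and H3K4me3 cells lasted 24 hours, with 6 ug per ml polybrene. All ChIP and input cells were crosslinked with 0.2 mM DSG for 45 minutes and 1% formaldehyde for 10 minutes. The replicates are numbered experiments of 1 cell line and nothing says that they were separate lines, so p-values measure the spread between these libraries. RNA levels are the authors' log2 normalized tags per kilobase, which can be compared between genes, and depth behind them is unknown. The ChIP libraries held 8.37 to 13.6 M tags for H3K4me3, 3.87 to 17.6 M for KDM5A, and 2.95 and 8.13 M for KDM5C.

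Matrix metalloproteinases are zinc endopeptidases, secreted or held at the cell membrane, that are made as inactive proenzymes and cleave collagens and other matrix proteins. TIMPs bind their active sites, and TIMP2 also joins with the membrane enzyme MMP14 to activate the proenzyme of the gelatinase MMP2. Preadipocytes sit in a fibroblast-like collagen matrix that is rebuilt as they round up and fill with lipid, and MMP14 is known as the main pericellular collagenase of that step in mouse fat. KDM5 proteins remove methyl groups from lysine 4 of histone H3, the mark that trimethylated stands at active promoters.

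The knocked-down genes were lower in every comparison. Kdm5a was left at 50.7 to 58.1% of its shLuc level, Kdm5b at 60.2 to 63.9% and Kdm5c at 38.0 to 39.7%, with adjusted p of 0.0216 or less at each time. Of markers, the summed level of 9 preadipocyte or fibroblast genes lay between 64861.7 and 67826.5 tags per kilobase in shKdm5ABC cells and between 64738.5 and 70668.6 in shLuc cells at day 0. All but 1 of 6 endothelial marker rows stayed under log2 1 in every library, and of 8 macrophage marker rows Itgam, Ptprc and Adgre1 did, while 4 of the 8 passed the filter on low values. The 8 summed to 163.2 and 172.2 tags per kilobase in shKdm5ABC cells and 93.9 and 119.7 in shLuc cells at day 0, without overlap. They summed to 184.2 and 270.7 against 136.8 and 187.1 at 4 hours, and to 58.6 and 83.1 against 41.4 and 62.7 at day 2, with overlap, and their part in the members' differences was not tested. In the library shKdm5ABC day 0 replicate 2 the adipocyte gene Adipoq stood at 5.80 log2 tags per kilobase, against 3.05 in replicate 1.

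The promoters of the members fall into different classes, and those on which the later results turn are shown first. RefSeq windows of 300 bases around the start site, in build GRCm38.p6, were at hand for 8 of the 10 members, without Mmp2 and Mmp19. The 200 bases before the start site are printed 5′ to 3′ on the gene's strand. Capitals mark the motifs searched on both strands, TGANTCA (the AP-1 motif), TATAAA (the TATA box) and GGGCGG (the GC box), which do not overlap in these stretches. Mmp3 (chr9:7445622-7445821, plus strand) and Mmp13 (chr9:7272314-7272513, plus strand) are shown because no H3K4me3 peak was assigned to them. Mmp11 (chr10:75932503-75932702, minus strand) is shown because its RNA moved with that of Mmp13, and Mmp14 (chr14:54431398-54431597, plus strand) and Timp2 (chr11:118355412-118355611, minus strand) because they hold broad H3K4me3 peaks with KDM5A.
Mmp3: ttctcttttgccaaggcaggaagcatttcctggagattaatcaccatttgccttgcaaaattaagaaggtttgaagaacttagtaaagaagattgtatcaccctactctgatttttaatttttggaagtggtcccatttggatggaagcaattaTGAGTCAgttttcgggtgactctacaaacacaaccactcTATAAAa
Mmp13: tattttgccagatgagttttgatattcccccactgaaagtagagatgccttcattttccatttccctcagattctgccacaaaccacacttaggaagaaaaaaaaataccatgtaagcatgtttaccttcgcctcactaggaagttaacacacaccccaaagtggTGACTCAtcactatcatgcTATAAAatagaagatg
Mmp11: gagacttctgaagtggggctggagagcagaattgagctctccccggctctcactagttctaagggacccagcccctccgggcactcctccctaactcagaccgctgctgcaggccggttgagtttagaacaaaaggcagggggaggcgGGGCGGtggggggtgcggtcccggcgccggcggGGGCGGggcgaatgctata
Mmp14: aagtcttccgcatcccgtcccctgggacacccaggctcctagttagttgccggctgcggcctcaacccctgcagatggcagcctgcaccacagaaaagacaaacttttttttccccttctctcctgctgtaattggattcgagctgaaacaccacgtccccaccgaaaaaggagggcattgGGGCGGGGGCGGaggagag
Timp2: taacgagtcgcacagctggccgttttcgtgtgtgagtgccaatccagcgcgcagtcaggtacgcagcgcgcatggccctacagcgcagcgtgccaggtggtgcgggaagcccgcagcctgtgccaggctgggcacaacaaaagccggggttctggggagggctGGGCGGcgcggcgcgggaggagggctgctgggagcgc
The windows of Mmp3 and Mmp13 each hold 1 TGANTCA and 1 TATAAA match and no GGGCGG. None of the other 6 windows holds a TGANTCA or TATAAA match, while Mmp11 holds 4 GGGCGG, Mmp14 and Timp3 2 each, and Timp1 and Timp2 1 each. Of all 32851 windows in the table, 7.81% hold TGANTCA, 13.6% TATAAA and 35.7% GGGCGG. The observed over expected CpG ratio was 0.0845 for Mmp3, 0.0722 for Mmp13 and 0.104 for Timp4, against a median of 0.384 over all windows. It was 0.384 for Timp1, 0.425 for Mmp14, 0.573 for Mmp11, 0.714 for Timp3 and 0.718 for Timp2. Thus the lowest CpG ratios were those of the 3 members without an H3K4me3 peak in the table. A match is a run of letters, not evidence that a factor binds.

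Before induction the family was led by 3 genes. Mmp2, the gelatinase, averaged 12016 tags per kilobase in shKdm5ABC cells and 14031 in shLuc cells at day 0, above 99.96% of the 13534 genes tested in shLuc cells. Mmp14 averaged 5300 and 5910 tags per kilobase in the same groups, and Timp2 3919 and 4104. Mmp2 made up 66.2 and 64.6% of the summed level of the 6 metalloproteinases at day 0 in shKdm5ABC cells, against 67.4 and 63.1% in shLuc cells. Timp2 made up 85.7 and 86.8% of the summed level of the 4 inhibitors in shKdm5ABC cells, against 86.0 and 87.8% in shLuc cells. The 3 genes thus carried most of the RNA in their classes, and at day 0 the next members in shLuc cells were Mmp11 at 666.5, Timp1 at 505.8, Mmp19 at 360.3 and Mmp13 at 352.0 tags per kilobase. Mmp3 at 123.4 and Timp3 at 103.9 were followed by Timp4 at 11.2, the lowest. Neighbours in that order whose 2 libraries overlapped were Mmp19 and Mmp13, and Mmp3 and Timp3.

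**Figure D1:**
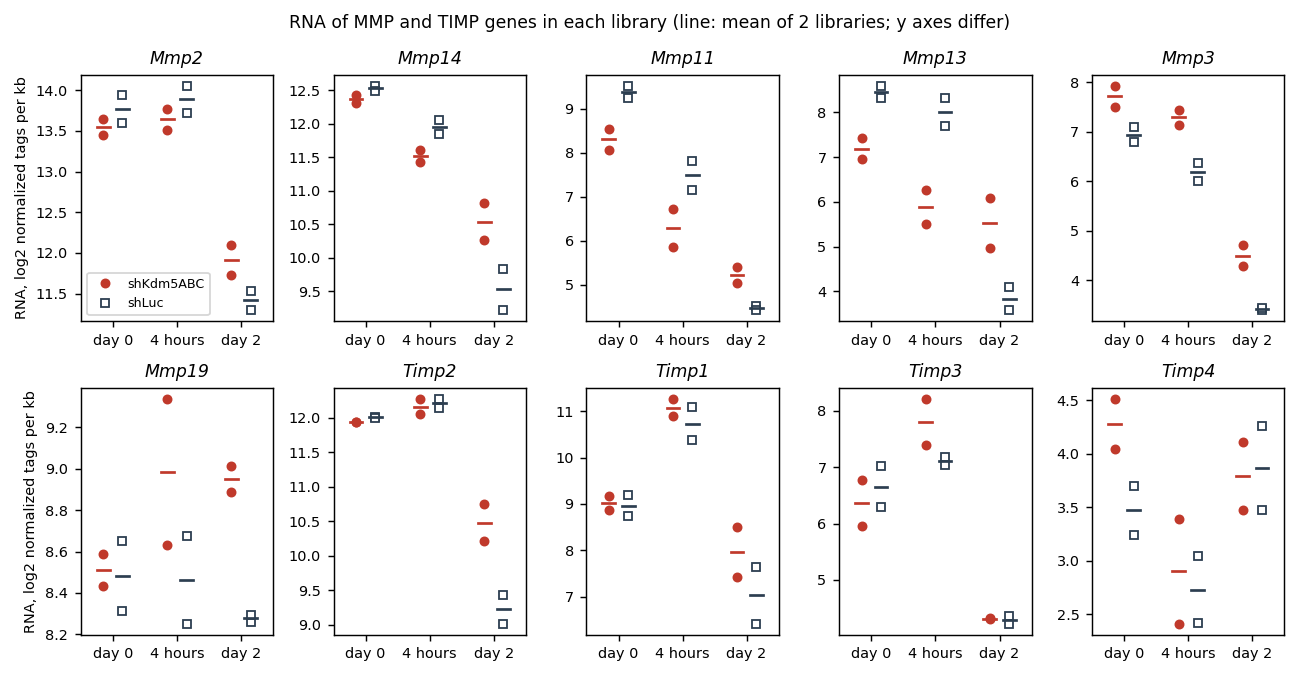
RNA level (log2 normalized tags per kilobase) of the 10 members in each of 12 libraries, with shKdm5ABC as filled circles left of shLuc as open squares at each time and lines for the mean of 2 libraries. Levels of 8 members are far lower at day 2 than at day 0 in shLuc cells, Timp1 peaks at 4 hours, and the order of the 2 groups for Mmp11 and Mmp13 is the other way round at day 2.

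Across differentiation of the shLuc control, 8 of 10 members had fallen by day 2. Mmp11 was 29.9-fold lower at day 2 than at day 0 and Mmp13 24.5-fold, while Mmp3, Mmp14, Timp2, Timp3, Mmp2 and Timp1 were 3.81- to 11.5-fold lower. Mmp19 and Timp4 did not pass the test. Of all genes tested, 55.0% were called in either direction and 27.8% fell, with an adjusted p under 0.05 in a limma fit over all 12 libraries. The median log2 change of the 10 members was -2.57, against -0.014 over all genes. In bulk RNA, fewer cells expressing a gene and less RNA per cell cannot be told apart, and the sum of the preadipocyte markers was lower too, at 15383.5 and 18831.7 tags per kilobase at day 2 in shLuc cells, against 64738.5 and 70668.6 at day 0. The markers' part in the members' fall was not tested. In shKdm5ABC cells 7 members had fallen by day 2, where 45.2% of genes were called and 23.1% fell, and with the replicate number as a block 9 were called (59.8% of genes), Timp1 lower and Mmp19 higher besides.

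By 4 hours fewer members had moved. In shLuc cells Timp1 rose and Mmp11 and Mmp3 fell, where 42.3% of genes were called, 20.7% higher and 21.6% lower. With the block Mmp13 and Mmp14 were called lower as well (58.5% of genes called). In shKdm5ABC cells Timp1 and Timp3 rose and Mmp11, Mmp13, Mmp14 and Timp4 fell, where 46.1% of genes were called, 22.4% higher and 23.7% lower, and with the block Mmp19 (higher) and Mmp3 (lower) were too (61.0% of genes). The shLuc count was 1 without shLuc day 0 replicate 2 or shLuc 4 hours replicate 1, and the shKdm5ABC count 3 without shKdm5ABC day 0 replicate 1 or shKdm5ABC 4 hours replicate 2. Between 4 hours and day 2, 8 members fell and Timp4 rose in shLuc cells, where 46.4% of genes were called, 23.5% lower and 22.9% higher. In shKdm5ABC cells 7 fell over that interval, all but Mmp13, Mmp19 and Timp4, where 41.2% of genes were called and 20.9% fell.

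Mmp2 and its partners Mmp14 and Timp2 fell but stayed the 3 most abundant members at day 2. In log2 tags per kilobase, Mmp2 stood at 13.65 and 13.45 at day 0, 13.77 and 13.51 at 4 hours, and 12.10 and 11.73 at day 2 in shKdm5ABC cells, against 13.94 and 13.59, 14.05 and 13.72, and 11.54 and 11.30 at those times in shLuc cells. The day 2 libraries of both groups lay under all others, and the fall from day 0 was -1.63 in shKdm5ABC cells and -2.35 in shLuc cells (log2, SE 0.21 each, adjusted p 1.5e-04 and 8.2e-06). Mmp14, which cleaves collagen at the cell surface, stood at 12.43 and 12.31, 11.60 and 11.43, and 10.82 and 10.26 in shKdm5ABC cells, against 12.57 and 12.49, 12.06 and 11.85, and 9.84 and 9.21 in shLuc cells. Libraries of the 3 times did not overlap within either group, and Mmp14 was 3.56-fold lower at day 2 than at day 0 in shKdm5ABC cells and 8.02-fold lower in shLuc cells (SE 0.22 log2 each, adjusted p 1.2e-04 and 2.9e-06). Its 4-hour difference was -0.86 in shKdm5ABC cells (adjusted p 0.0102) and -0.58 in shLuc cells (adjusted p 0.0606, and 0.0035 with the block). Timp2, the inhibitor that also takes part in activating the gelatinase, stood at 11.93 and 11.94, 12.05 and 12.27, and 10.74 and 10.21 in shKdm5ABC cells, against 12.01 and 11.99, 12.14 and 12.27, and 9.43 and 9.02 in shLuc cells. Like Mmp2 it was not called at 4 hours in either group, and it was lower at day 2 than at day 0, by a log2 difference of -1.46 in shKdm5ABC cells and -2.78 in shLuc cells (SE 0.19 each, adjusted p 1.7e-04 and 1.9e-06). Among members, the profile of Mmp2 over the 12 libraries was nearest to that of Timp2, with a root mean square difference of 0.30 after centring, and then to Mmp14 with 0.39.

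In shLuc cells the stromelysin and collagenase genes Mmp11, Mmp13 and Mmp3 fell furthest of the members. Mmp11, known as stromelysin-3 and released as an active enzyme, stood at 8.54 and 8.07, 6.71 and 5.86, and 5.40 and 5.04 in shKdm5ABC cells, against 9.52 and 9.23, 7.82 and 7.16, and 4.52 and 4.42 in shLuc cells. It had already fallen at 4 hours, with differences of -2.02 in shKdm5ABC cells and -1.89 in shLuc cells (log2, SE 0.30 each, adjusted p 4.4e-04 and 8.0e-04). Mmp13, the collagenase that does most interstitial collagenase work in mice, stood at 7.42 and 6.95, 6.26 and 5.50, and 6.08 and 4.97 in shKdm5ABC cells, against 8.59 and 8.31, 8.31 and 7.69, and 4.09 and 3.58 in shLuc cells. Its 4-hour change was -1.31 in shKdm5ABC cells (SE 0.39, adjusted p 0.0187) and -0.45 in shLuc cells (adjusted p 0.38, and 0.0395 with a replicate block). The day 2 over day 0 difference of Mmp13 was -1.67 in shKdm5ABC cells and -4.61 in shLuc cells, with overlapping levels at 4 hours and day 2 in shKdm5ABC cells. Mmp3, stromelysin-1, which can also activate other proenzymes, stood at 7.51 and 7.93, 7.14 and 7.43, and 4.28 and 4.71 in shKdm5ABC cells, against 6.79 and 7.09, 6.00 and 6.37, and 3.39 and 3.44 in shLuc cells. It was higher in shKdm5ABC libraries at each time without overlap, and its day 2 over day 0 fall of -3.22 in shKdm5ABC cells and -3.52 in shLuc cells (SE 0.22 each) was among the largest in both groups.

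Timp1, an inhibitor that cytokines and growth factors induce, was the member that rose in both groups after 4 hours. It stood at 9.17 and 8.86, 11.26 and 10.89, and 8.49 and 7.43 in shKdm5ABC cells, against 9.19 and 8.74, 11.08 and 10.37, and 7.65 and 6.42 in shLuc cells. The 4-hour libraries lay above all others, and the change from day 0 was 2.06 in shKdm5ABC cells and 1.76 in shLuc cells (log2, SE 0.43 each, adjusted p 0.0031 and 0.0084), where 22.4 and 20.7% of genes rose. The shLuc call ended without shLuc day 0 replicate 2 (1.54, adjusted p 0.0577) and without shLuc 4 hours replicate 1 (1.41, adjusted p 0.0659). At day 2 Timp1 was under its day 0 level in shLuc cells (-1.93, adjusted p 0.0034), and in shKdm5ABC cells the difference of -1.05 had an adjusted p of 0.0704, or 8.6e-04 with the replicate block.

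Timp3, the inhibitor that binds the matrix itself, stood at 5.96 and 6.78, 7.38 and 8.21, and 4.32 and 4.30 in shKdm5ABC cells, against 6.29 and 7.02, 7.04 and 7.18, and 4.37 and 4.23 in shLuc cells. At 4 hours it rose by 1.43 in shKdm5ABC cells (SE 0.33, adjusted p 0.0057). In shLuc cells the 4-hour difference was 0.46 (adjusted p 0.30), and the difference between these changes was not called (0.97, SE 0.47, adjusted p 1.00). The shKdm5ABC call ended without shKdm5ABC day 0 replicate 1 (adjusted p 0.0551) or shKdm5ABC 4 hours replicate 2 (adjusted p 0.0542). All 4 day 2 libraries lay within 4.23 to 4.37, the closest agreement between groups of any member at that time.

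Neither Mmp19 nor Timp4 was called between day 2 and day 0 in either group without the replicate block. With it Mmp19 was called higher at day 2 in shKdm5ABC cells (log2 0.44, adjusted p 0.13, and 0.0170 with the block). Mmp19, an enzyme of the basement membrane and other matrix proteins, stayed between 8.25 and 9.34 in all 12 libraries. At day 2 it stood at 8.89 and 9.01 in shKdm5ABC cells, against 8.26 and 8.29 in shLuc cells, without overlap. By that time it ranked 4th of the 10 members in both groups, at 495.4 tags per kilobase in shKdm5ABC cells and 310.3 in shLuc cells. Timp4, an inhibitor found in fat and heart, stayed low, at 4.04 and 4.51, 2.41 and 3.39, and 3.47 and 4.11 in shKdm5ABC cells, against 3.69 and 3.24, 3.04 and 2.42, and 4.26 and 3.47 in shLuc cells. It was lower at 4 hours than at day 0 in shKdm5ABC cells (-1.38, SE 0.41, adjusted p 0.0195) and higher at day 2 than at 4 hours in shLuc cells (1.14, SE 0.41, adjusted p 0.0435). Both calls ended without single libraries: the first without shKdm5ABC day 0 replicate 2 (adjusted p 0.11) or shKdm5ABC 4 hours replicate 1 (0.15), the second without any of 6 libraries, with adjusted p up to 0.26 without shLuc day 2 replicate 1.

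Some members lie inside or across other genes, and the RNA kit does not keep the strand, so reads of overlapping exons could not be assigned by strand. In the GRCm38 annotation Timp1 lies within Syn1, Timp3 within Syn3 and Timp4 within Syn2. The hosts' levels ranged over 12 libraries from 0.68 to 2.91 for Syn1, from 0.33 to 1.56 for Syn3 and from 1.85 to 6.34 for Syn2. Mmp19 overlaps Tmem198b, at 7.26 to 8.26, and Timp2 overlaps Cep295nl, at 1.17 to 4.13. Mmp2 overlaps Gm45472, whose level was not examined. The range of Syn2 spans that of Timp4, so the values of Timp4 are uncertain. That of Tmem198b reaches the lower end of Mmp19, at 8.25 to 9.34, so small differences of Mmp19 are uncertain too.

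**Figure D2:**
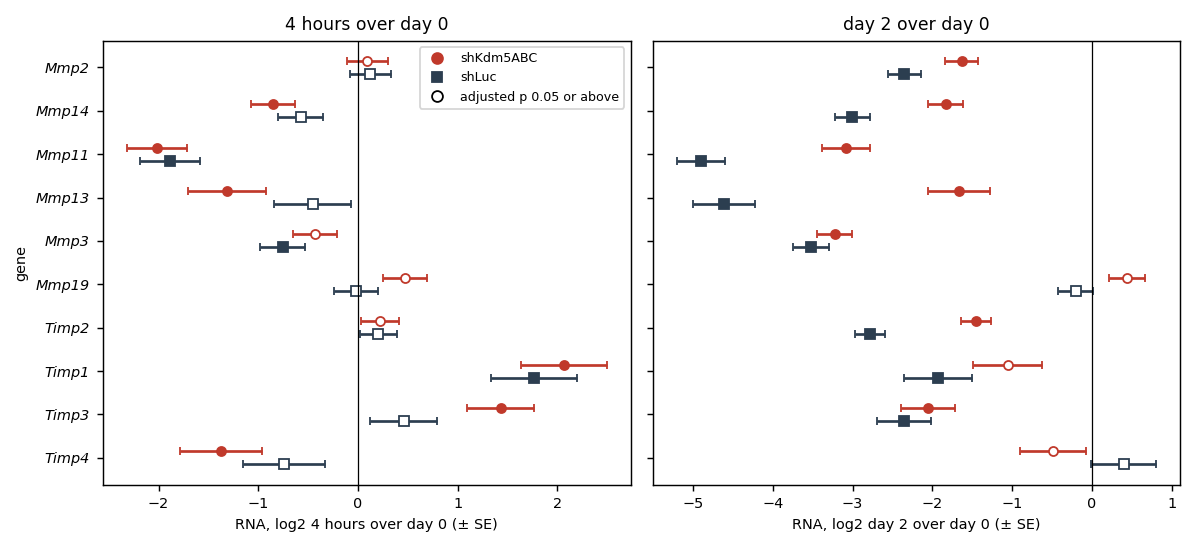
Change in RNA (log2, with SE from the limma fit) at 4 hours over day 0 (left) and at day 2 over day 0 (right) for each member, with shKdm5ABC as circles above shLuc as squares and open symbols for an adjusted p of 0.05 or above. At day 2 the shLuc changes of Mmp11 and Mmp13 reach -4.90 and -4.61, against -3.08 and -1.67 in shKdm5ABC cells.

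RNA of several members was higher in shKdm5ABC than in shLuc cells at day 2. At 4 hours Mmp13 was lower and Mmp3 higher, in the directions they already had at day 0, where neither was called without the block. At day 2, 4 of 10 members were higher in shKdm5ABC than in shLuc cells, Mmp13 (3.22-fold), Timp2 (2.38-fold), Mmp3 (2.11-fold) and Mmp14 (2.02-fold), and none was lower. Of all genes tested 5.66% were higher, and the median log2 difference of the members was 0.84, against -0.0025 over all genes. The log2 differences were 1.69 for Mmp13 (SE 0.39, adjusted p 0.0271), 1.25 for Timp2 (SE 0.19, adjusted p 0.0053), 1.08 for Mmp3 (SE 0.22, adjusted p 0.0179) and 1.01 for Mmp14 (SE 0.22, adjusted p 0.0230). With the replicate number as a block, 8 members were higher, all but Timp3 and Timp4, beside 28.1% of genes called in either direction. The 4 members added were Mmp19 at 0.67 (adjusted p 0.0883, and 0.0051 with the block), Mmp11 at 0.75 (0.15 and 0.0059), Mmp2 at 0.50 (0.16 and 0.0020) and Timp1 at 0.93 (0.21 and 0.0065). Libraries of the 2 groups did not overlap for 7 members, all but Timp1, Timp3 and Timp4, where they did not for 53.3% of all genes tested and 9.00% were called in either direction. Without shLuc day 2 replicate 2 no member was called, without shKdm5ABC day 2 replicate 1 only Timp2 was, and without shLuc day 2 replicate 1 2 members were. In a fit of the day 2 groups alone the count was 0, with adjusted p from 0.10 to 0.16 for the 4.

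Summed levels of differentiation markers also differed at day 2, though not each marker. At day 2 the summed level of 9 preadipocyte or fibroblast markers was 20053.6 and 25912.5 tags per kilobase in shKdm5ABC cells, against 15383.5 and 18831.7 in shLuc cells. That of 9 adipocyte markers was 18929 and 31468.5 in shKdm5ABC cells, against 35266.8 and 44385.1 in shLuc cells. Neither sum overlapped between groups, and their part in the members' difference was not tested. Of the adipocyte markers, Fabp4 stood at 12.8 and 13.7 log2 tags per kilobase in shKdm5ABC cells, against 14.2 and 14.3 in shLuc cells. Adipoq stood at 9.44 and 10.5, against 9.27 and 10.4, and it, Cidec, Plin1 and Retn overlapped between groups. The adipocyte sum thus does not show that all of its markers were lower.

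**Figure D3:**
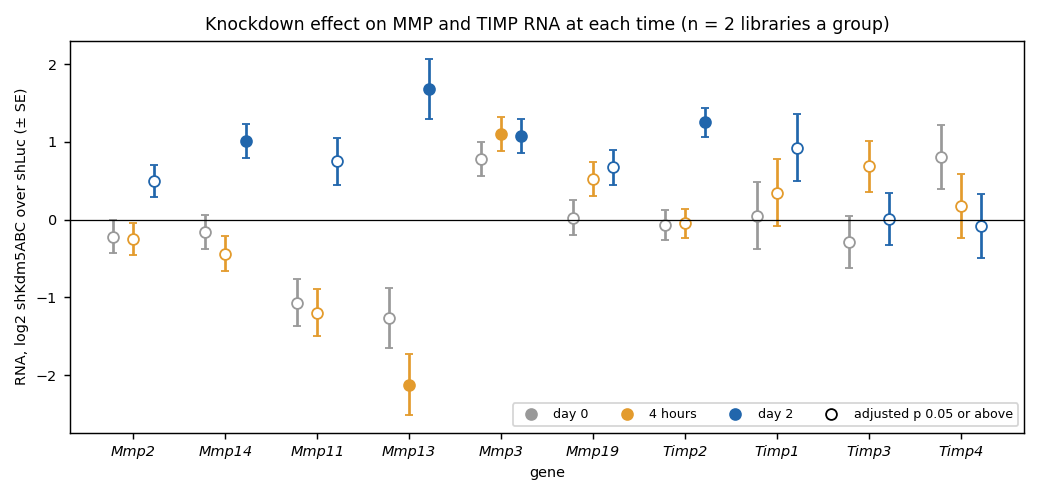
RNA difference, log2 shKdm5ABC over shLuc with SE (n = 2 libraries a group), for each member at day 0, 4 hours and day 2, with filled symbols for an adjusted p under 0.05. Mmp13 lies at -2.12 at 4 hours and at 1.69 at day 2, while Mmp3 lies at 0.78, 1.11 and 1.08.

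At 4 hours 2 members differed, where 1.44% of all genes did, 0.798% higher and 0.643% lower. Mmp13 was 4.35-fold lower in shKdm5ABC cells (log2 -2.12, SE 0.39, adjusted p 0.0327), with both shKdm5ABC libraries under both shLuc libraries. Mmp3 was 2.15-fold higher (log2 1.11, SE 0.22, adjusted p 0.0450). With the replicate block 4 members were called, where 9.68% of genes were, the added ones being Mmp11, at -1.20 (adjusted p 0.10, and 0.0015 with the block), and Mmp19, at 0.52 (0.35 and 0.0391). Both calls ended in a fit of the 4-hour groups alone (adjusted p 0.15 for Mmp13 and 0.18 for Mmp3), and without a filter on low values (0.0760 and 0.0790). The Mmp3 call also ended when any 1 of 10 libraries was left out (adjusted p up to 0.26), and the Mmp13 call for any of 6 (up to 0.21), all 4 of the 4-hour libraries among them for both.

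At day 0, before induction, no member passed the limma test, where 1.51% of all genes did. An unadjusted p under 0.05 was found for 3 of the 10 members and for 12.7% of all genes. Those 3 were called with the replicate block, where 9.44% of genes were. Mmp11 differed by -1.07 (adjusted p 0.14, and 0.0026 with the block), Mmp13 by -1.26 (0.18 and 0.0016) and Mmp3 by 0.78 (0.14 and 0.0044). The libraries of the 2 groups did not overlap for 6 members, these 3 among them, and for 42.1% of all genes.

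Mmp11 and Mmp13 were lower in both shKdm5ABC libraries than in both shLuc libraries at day 0 and at 4 hours, and higher in both at day 2. The difference between the knockdown effects at day 2 and at day 0 was not called for any member, where 0.310% of genes were called. An unadjusted p under 0.05 was found for 5 of the 10 members and for 11.9% of all genes. With the block it was called for 5 members, Mmp2, Mmp11, Mmp13, Mmp14 and Timp2, where 7.67% of genes were. The difference between the effects at 4 hours and at day 0 was called for no member and for 0% of genes, nor for a member with the block, and had an unadjusted p under 0.05 for none in the unblocked fit.

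The summed RNA of both classes is given by library, with no test. The 6 metalloproteinases summed to 6802 and 5237 tags per kilobase at day 2 in shKdm5ABC cells, against 4240 and 3466 in shLuc cells. The 4 inhibitors summed to 2106 and 1397 in shKdm5ABC cells, against 930.6 and 634.4 in shLuc cells. The ratio of metalloproteinases to inhibitors was 4.27 and 3.81 at day 0 in shKdm5ABC cells, against 4.85 and 4.22 in shLuc cells, with overlap. At 4 hours it was 2.59 and 2.15 in shKdm5ABC cells, against 3.25 and 2.81 in shLuc cells, the lowest of the 3 times in each group. At day 2 it was 3.23 and 3.75 in shKdm5ABC cells, against 4.56 and 5.46 in shLuc cells, and the day 2 and day 0 values of shLuc cells overlapped. These sums describe RNA and not enzyme activity.

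Other genes of the pathway were counted from lists. Of 17 other metalloproteinase genes 7 passed the filter on low values. At day 2 over day 0 in shLuc cells 3 of them fell and none rose, where 55.0% of all genes were called and 27.8% fell. The log2 differences were -3.40 for Mmp23 and -3.13 for Mmp27. Mmp9, the other gelatinase, stood at 1.72 and 2.06 at day 2, against 5.98 and 5.87 at day 0. In shKdm5ABC over shLuc cells at day 2, 3 of the 7 were higher, Mmp9 by 1.92 (SE 0.31, adjusted p 0.0068), Mmp28 by 1.59 (SE 0.28, adjusted p 0.0101) and Mmp23 by 1.14 (SE 0.24, adjusted p 0.0191), and none lower. The median of the 7 was 1.14 in that comparison, against -0.0025 over all genes, of which 9.00% were called and 5.66% were higher.

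Of 23 tested ADAM, ADAMTS and ADAMTS-like genes, 6 rose and 9 fell at day 2 over day 0 in shLuc cells. Of all genes 55.0% were called there and 27.8% fell. Adam12, which has long been linked to fat cell formation, rose by 1.98 (adjusted p 1.4e-05) and Adam15 by 1.49 (adjusted p 3.8e-06). The aggrecanases Adamts4 and Adamts5 fell, with differences of -2.29 and -2.25. At day 2, 5 were higher and 2 lower in shKdm5ABC than in shLuc cells, where 9.00% of all genes were called and 5.66% were higher. Those with the smallest p were the ADAMTS-like gene Adamtsl4 at 1.93, Adamts5 at 1.58, Adamts8 at 2.18 and Adam8 at 1.68, and the median was 0.42. Adamts8 stood at 2.12 and 1.74 in shKdm5ABC cells, against -0.26 and -0.24 in shLuc cells, under the log2 1 of the filter, so its difference is uncertain. Adam15 was 1 of the 2 that were lower (-0.49).

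Of 18 tested genes for activators, other inhibitors, clearance and the plasminogen system, 2 rose and 11 fell at day 2 over day 0 in shLuc cells. Of all genes 55.0% were called there and 27.8% fell. The log2 differences were -5.53 for Plat, tissue plasminogen activator, -3.54 for Ctsk, cathepsin K, -2.03 for Reck, a membrane-bound inhibitor of metalloproteinases, and -1.54 for Ctsb, cathepsin B. At 4 hours over day 0, 10 of the 18 rose and 1 fell in shLuc cells, where 20.7% of all genes rose and 21.6% fell. In shKdm5ABC over shLuc cells at day 2, 3 were higher and 1 lower, where 9.00% of all genes were called and 5.66% were higher. Ctsk was higher by 1.11 (adjusted p 0.0232), Plat by 1.69 (adjusted p 0.0424) and Lrp1, a receptor that clears metalloproteinases, by 0.56 (adjusted p 0.0426).

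The gene outside the list nearest by profile to each member other than Mmp14, over 12 libraries centred on the log2 scale, was Mfge8 for Timp2 (root mean square difference 0.13), Sfxn3 for Mmp2 (0.15), Ccdc71l for Mmp19 (0.15), Ssc4d for Timp4 (0.24), Thy1 for Timp3 (0.27), Ccl9 for Mmp3 (0.29), Adamts14 for Timp1 (0.30), Uap1l1 for Mmp11 (0.38) and Bst2 for Mmp13 (0.60). The member with the least close neighbour was Mmp13, whose own levels ranged over 5.01 log2 units.

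H3K4me3 at the members is given by column label only, since labels and promoter marks disagree. The promoter of Adipoq held 174.14 and 161.33 tags in the columns labelled KDM5_KD_4h and 125.38 and 65.67 in those labelled KDM5_KD_D2, against 8.68 to 24.25 in the other 8, among them Control_D2. Its RNA was high at day 2 only, at 9.44 and 10.5 in shKdm5ABC cells and 9.27 and 10.4 in shLuc cells. The promoter of Vdr held 2880.66 and 2350.57 tags in Control_D2 and 2497.92 and 2076.72 in KDM5_KD_D0, against 466.36 to 1424.76 in the rest, while its RNA was 12.3 to 12.7 at 4 hours and at most 7.84 at the other times. Adipoq is one of the adipocyte markers above, and Vdr was chosen after its values were seen. Tags over all peaks also summed to 7.88 to 8.32 M in Control_4h, KDM5_KD_D0 and KDM5_KD_D2, against 6.56 to 6.81 M in the other 6 columns. So the comparisons below are between columns, and no direction is drawn for the knockdown or for time.

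Of the 10 members 7 had an H3K4me3 peak, each across its start site, and Mmp3, Mmp13 and Timp4 had none in the table. Among these the peaks of Mmp14 (chr14:55048295-55055191, mm9), Mmp2 (chr8:95350209-95357104) and Timp2 (chr11:118212834-118217624) were broad, at 6897, 6896 and 4791 bp, wider than 98.6, 98.6 and 93.2% of all peaks. They averaged 2030, 1590 and 1035 tags over 12 libraries, against a median of 627.7 over all peaks. The peaks of Mmp11 (294.2 tags), Mmp19 (284.3), Timp1 (238.0) and Timp3 (149.9) were low, with at most 16.6% of peaks holding fewer tags. The 3 broad peaks thus belong to the 3 members with the most RNA.

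In the columns labelled KDM5_KD_4h the mean was the lowest of the 6 labels at all 7 peaks. Mmp2 held 620.13 and 685.46 tags there, against 2605.82 and 1671.69 in Control_4h and 1426.66 to 2212.62 in the other 8 columns. Mmp14 held 1104.82 and 1082.1, against 3165.08 and 2516.26 in Control_4h, and Timp2 351.18 and 454.09, against 1255.56 and 1301.76. Timp3 held 19.35 and 36.99, against 225.04 and 262.91, and no peak of the 7 overlapped between these columns, as was so for 60.3% of all peaks. By label, KDM5_KD_4h over Control_4h was called lower at 7 of 7 peaks, where 35.9% of all peaks were called and 34.3% were lower. The median log2 difference of the 7 was -1.68, against -0.23 over all peaks. After quantile scaling, which moved the median of all peaks to 0.08 and the split to 1588 lower and 1231 higher from 3666 lower and 173 higher, 5 of the 7 were called, without Mmp19 and Timp1.

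The other labelled comparisons were also between columns whose sums of tags differed, except Control_D2 over Control_D0 and KDM5_KD_D2 over KDM5_KD_D0. KDM5_KD_D0 was called higher than Control_D0 at Mmp19, Timp2 and Timp3, where 32.9% of peaks were called and 32.7% were higher, and with the block at Timp1 too (60.5% of peaks called). That count was 0 without Control_D0 replicate 1 or KDM5_KD_D0 replicate 2 and 1 without KDM5_KD_D0 replicate 1. KDM5_KD_D2 was called higher than Control_D2 at Mmp19, at 505.1 and 397.83 tags against 169.75 and 174.2, where 24.0% of peaks were called and 23.8% were higher, and with the block also at Mmp14, where 53.1% of peaks were called in either direction. Control_4h was called higher than Control_D0 at Mmp19, Timp2 and Timp3, where 27.9% were called and 27.8% were higher, and at 6 peaks with the block, where 59.3% were called. That count was 1 without replicate 1 of either label. Quantile scaling moved the all-peak medians of these 3 comparisons from between 0.25 and 0.29 to -0.04 and left none of their calls at the members. KDM5_KD_4h was called lower than KDM5_KD_D0 at 7 of 7 peaks, where 36.0% were called and 34.9% were lower, and at 5 after quantile scaling. Shares of all peaks called after quantile scaling are not given for this comparison or the 3 before it. Control_D2 over Control_D0 gave no call at the members in limma or edgeR, where 1.97% of peaks were called, and 2 of the 7 had an unadjusted p under 0.05, as had 12.5% of all peaks. With the block Mmp11 and Mmp14 were called lower there (15.4% of peaks). KDM5_KD_D2 over KDM5_KD_D0 gave no call in limma or edgeR, where 0.346% of peaks were called, and 3 of the 7 had an unadjusted p under 0.05, as had 12.1% of all peaks. With the block 4 were called there (17.5% of peaks), Mmp19 higher and Mmp11, Timp2 and Timp3 lower.

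The following 3 comparisons of columns were chosen after the data were seen. KDM5_KD_4h was lower than Control_D0 at 6 of 7 peaks, where 15.6% of peaks were called and 10.1% were lower, with Mmp11 at 79.33 and 123.56 tags against 354.11 and 353.43 (-1.83, SE 0.25, adjusted p 0.0012), and Mmp19 not called (adjusted p 0.34). These columns had sums of tags in the same range. KDM5_KD_D2 was higher than KDM5_KD_4h at 7 of 7, where 29.6% were higher, and KDM5_KD_D0 was higher than Control_D2 at 5 of 7, where 33.1% were. That last count was 0 without Control_D2 replicate 1 or KDM5_KD_D0 replicate 1, 1 without KDM5_KD_D0 replicate 2 and 2 without Control_D2 replicate 2. After quantile scaling 3 of those 7 and none of those 5 were called. The shares of all peaks called after that scaling are not given, so these counts cannot be set against all peaks.

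**Figure D4:**
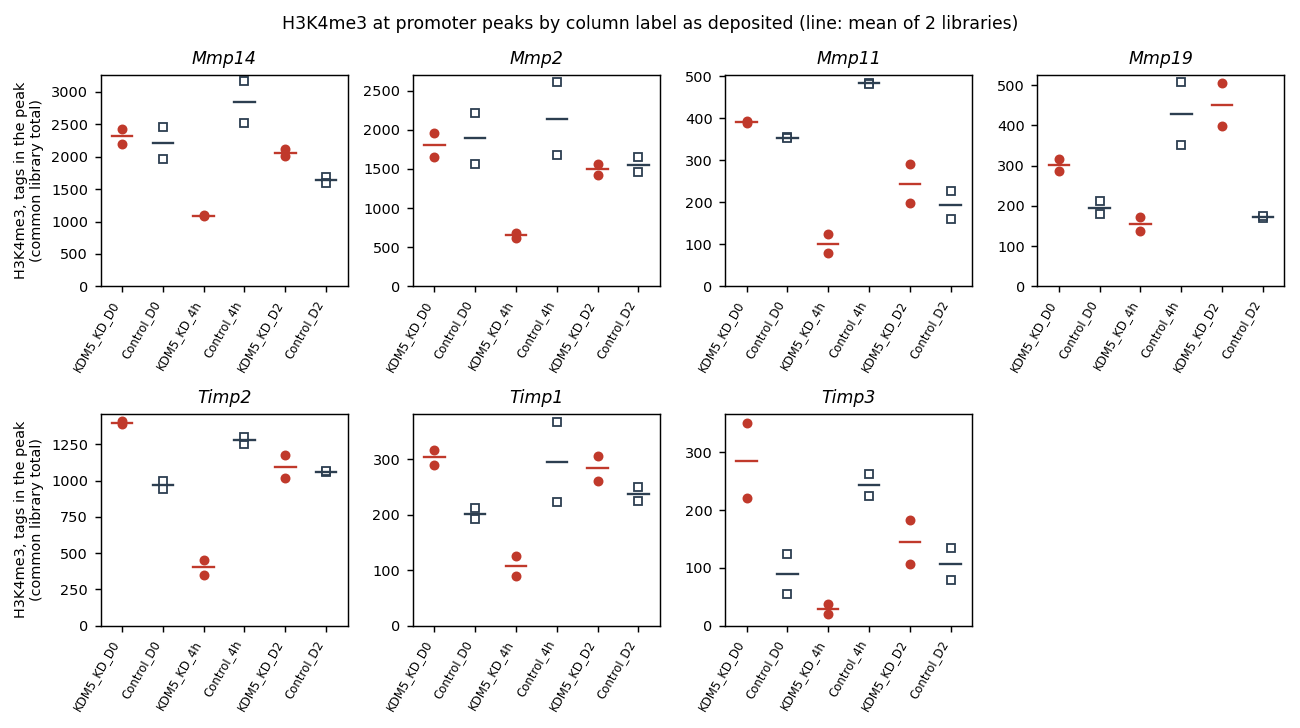
H3K4me3 tags in the promoter peak of 7 members, scaled to a common library total, in the 12 libraries by column label as deposited, with KDM5_KD columns as circles left of Control columns as squares and lines for the mean of 2 libraries. The KDM5_KD_4h columns are lowest by mean at every peak, at 1104.82 and 1082.1 tags for Mmp14.

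By tags summed over the peak nearest the start site, KDM5A was highest at Mmp14, Mmp2 and Timp2, whose KDM5A peaks were also the widest of the 10, at 6069, 2703 and 3119 bp. All 10 members had KDM5A peaks, 60 in all. Of these 16 averaged at least 20 tags over 6 libraries, as did 20222 of all 87525 peaks, and the median over all peaks was 7.18. At the peak nearest the start site, Mmp14 (chr14:55048447-55054515, mm9) held 339.44 and 186.92 tags at day 0, 380.21 and 299.69 at 4 hours and 374.5 and 291.45 at day 2, with 33.31 in the input. Mmp2 (chr8:95350780-95353482) held 248.73 and 144.87, 225.28 and 219.6, and 208.81 and 241.2, with 22.51 in the input. Timp2 (chr11:118214004-118217122) held 202.89 and 85.79, 189.27 and 139.51, and 140.72 and 128.33, with 18.01 in the input. The libraries of the 3 times overlapped at all 3 peaks. Per kilobase of peak the order was another one, with Mmp2 at 79.4 tags, Mmp19 at 68.9, Mmp11 at 60.3, Timp1 at 56.3, Mmp14 at 51.4, Timp2 at 47.4 and the other 4 at 16.5 or less. The ChIP mean over the input was 9.54 for Mmp2, 9.37 for Mmp14 and 8.20 for Timp2, within the 5.25 (Mmp11) to 11.9 (Timp3) of the 9 members with tags in the input, and Timp1 at 10.4 also lay above these 3. For Timp3, Mmp3 and Timp4 the input was 0.9 tags, a single read, so their ratios are uncertain. Against the 13106 KDM5A peaks within 1500 bp of a start site, by summed tags, Mmp14 lay above 81.7%, Mmp2 above 65.7% and Timp2 above 50.6%.

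Mmp19 averaged 72.3 tags, Timp1 65.5 and Mmp11 37.8 at their nearest peak, and Timp3 10.7. The peaks nearest to Timp4, Mmp3 and Mmp13 averaged 5.70, 5.65 and 3.85 tags, under the median of all KDM5A peaks. At Mmp11 the values were 91.69 and 27.27 at day 0, 57.78 and 2.58 at 4 hours, and 22.7 and 24.74 at day 2, and the 2.58 is a single read in the shallowest library, of 3.87 M tags. Mmp3, Mmp13 and Timp4, the members with no H3K4me3 peak and a low CpG ratio, had the lowest KDM5A near the start site. The highest peaks away from start sites lay for Mmp2 at -9200 bp (74.5 tags on average), for Mmp19 at -11386 bp (87.6), for Mmp14 at 12105 bp (51.6) and for Timp4 at -16261 and 24161 bp (71.7 and 71.4), as the authors' table assigns them.

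**Figure D5:**
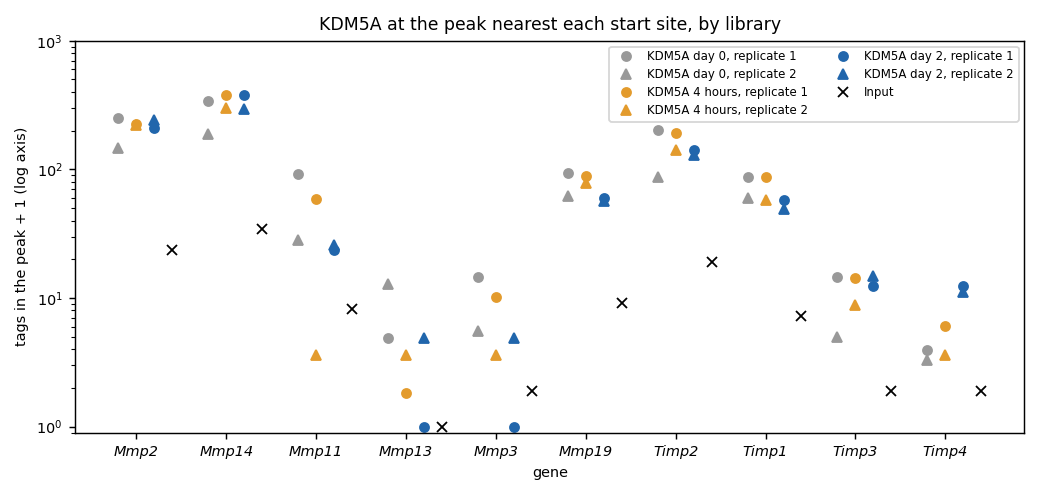
KDM5A tags plus 1 (log axis) at the peak nearest the start site of each member at day 0, 4 hours and day 2 in 2 libraries each, with the input as crosses. Mmp14 and Mmp2 lie highest, and Mmp3, Mmp13 and Timp4 average under 6 tags.

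With time, 2 of the 60 KDM5A peaks were called, both lower at day 2 than at 4 hours, where 0.607% of all peaks were called and 0.483% were lower. The Mmp2 peak at -29610 bp (chr8:95321367-95321867) held 0 and 3.09 tags at day 2, against 30.99 and 18.08 at 4 hours (log2 of tags plus 1, -3.61, SE 0.83, adjusted p 0.0097). The Timp3 peak at -98916 bp (chr10:85663991-85664491) held 0 and 5.41 tags at day 2, against 22.61 and 20.67 at 4 hours (-3.16, SE 0.87, adjusted p 0.0467). Neither call held without day 2 replicate 1 or 4 hours replicate 2, the libraries of 4.41 and 3.87 M tags, or without 4 hours replicate 1. In that order the differences were -2.59, -3.98 and -3.24 for Mmp2 and -1.82, -3.22 and -3.10 for Timp3. In the compared groups alone neither peak was called (limma adjusted p 0.0944 for Mmp2 and 0.16 for Timp3). The Timp3 call also ended without either day 0 library. None was called at 4 hours or at day 2 over day 0 by limma without the block or by edgeR on the recovered reads, where 0.0606 and 0.173% of all peaks were called in limma. In these comparisons 4 and 6 of the 60 had an unadjusted p under 0.05, as had 5.23 and 6.34% of all peaks. On recovered reads edgeR gave the Timp3 peak an adjusted p of 0.13 and the Mmp2 peak 0.0206 at day 2 over 4 hours. With the replicate block in limma, the Mmp11 peak at 126 bp was called lower at 4 hours over day 0 (adjusted p 0.0294), though its libraries overlapped. The Mmp2 peak at -29610 bp was called lower at day 2 over day 0 with the block (adjusted p 0.0169).

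KDM5C at day 2 had 7 peaks at 5 members, and without a second condition they are given as values. The Timp2 promoter peak (chr11:118216567-118217067) held 13.57 and 7.38 tags, or 4 and 6 reads, and the Mmp14 peak at 1150 bp (chr14:55051341-55051841) 23.76 and 6.15 tags, or 7 and 5 reads. The Mmp19 peak at -11945 bp held 27.15 and 15.99 tags, above 83.1% of all KDM5C peaks, and overlapped the KDM5A peak there. Mmp3 had 1 peak at 5959 bp (16.97 and 3.69 tags) and Timp4 had 3, at -50082, -2701 and 23731 bp (14.3 to 16.3 tags on average). Input was at most 1.8 tags in each. Of the 7 peaks 5 overlapped a KDM5A peak, and the other 2 belong to Timp4. The share of all KDM5C peaks that overlap a KDM5A peak is not given, so this count describes these peaks only.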

How the data were processed

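The authors deposited RNA as log2 normalized tags per kilobase per RefSeq transcript, and ChIP signal as tags per peak at a common library total, per the file headers. The submitters' processing notes list mm9, Bowtie2 (0.12.8), Subread, DESeq2, STAR and HOMER, with no roles. How RNA was scaled is not given in the sources used here. Transcripts were named from RefSeq. Whole reads were recovered from the deposited ChIP signal (100% of values within 0.1 of a whole read). One limma (3.58.1, R 4.3.3) fit with a mean-variance trend was made for each assay over all its libraries, two-sided, with Benjamini-Hochberg adjustment over all features and a threshold of 0.05. RNA genes needed log2 1 or more in 2 libraries (13534 of 17515, all 10 members among them), and ChIP was tested as log2(tags + 1). KDM5A errors rest on the trend across peaks, since the prior degrees of freedom were infinite. On simulated data the fits were tested for recovery of known changes. The simulated noise was independent between libraries, and changes were placed only in features at or above the median level. No result here rests on those simulations. edgeR (4.0.16) on recovered reads was an alternative.

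Replicate numbers come from the titles (experiment 1 or 2). Deviations of same-numbered libraries correlated at 0.381 to 0.657 over 15 pairs of RNA groups and at 0.504 to 0.790 over 15 pairs of H3K4me3 groups, so the numbers pair these libraries. Blocked values stand beside results whose call they change.

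Named genes were all members and their peaks, from each other list up to 4 called genes with the smallest p in the comparisons shKdm5ABC over shLuc at day 2 and shLuc day 2 over day 0, the nearest profile for each member, and Kdm5a, Kdm5b and Kdm5c. Members and lists were chosen with earlier results of these data known. The library labelled as virus input was not used here. The results of some genes outside the list of members are not reported here.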

Additional observations from a re-analysis of the deposited data

Results flagged for a closer look

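The effect of the knockdown at day 2 minus that at day 0 on RNA differed by the blocked test for 5 members, and for none in the fit without the block. It was 2.95 on the log2 scale for Mmp13 (SE 0.55, adjusted p 0.0625, and 3.9e-04 with the block). For Mmp11 it was 1.82 (SE 0.43, adjusted p 0.11, and 0.0017 with the block). In these 2 genes every shKdm5ABC library was lower than every shLuc library at day 0 and higher at day 2. It was 1.32 for Timp2 (adjusted p 0.0699, and 0.0088 with the block), 1.17 for Mmp14 (0.14 and 0.0067) and 0.72 for Mmp2 (0.36 and 0.0078). Without shKdm5ABC day 2 replicate 2 the count in the unblocked fit was 2. Over all 13534 genes, 42 were called without the block and 1038 with it.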

How the results depend on the processing

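The fall of 8 members at day 2 over day 0 in shLuc cells was called under every alternative run, including each left-out library. No member named with a call changed direction under any alternative. Counts of called members that moved by over 1.5 times, or to or from 0, were as follows. With the replicate block, shKdm5ABC over shLuc gave 3, 4 and 8 at day 0, 4 hours and day 2, shLuc 4 hours over day 0 gave 5, and the effect at day 2 minus day 0 gave 5. With the compared groups only, shKdm5ABC over shLuc gave 0 at 4 hours and 0 at day 2. Quantile scaling gave 1 and 2 there, and no filter on low values 0 at 4 hours. Leaving out 1 library gave 0 to 2 at 4 hours, 0 to 5 at day 2, 1 to 4 for shLuc 4 hours over day 0, 3 to 6 for shKdm5ABC 4 hours over day 0 and 0 to 2 for the effect at day 2 minus day 0.

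For H3K4me3 by label, quantile scaling gave 0 for KDM5_KD_D0 over Control_D0, 0 for KDM5_KD_D2 over Control_D2, 0 for Control_4h over Control_D0, 1 for Control_D2 over Control_D0, 0 for KDM5_KD_D0 over Control_D2 and 3 for KDM5_KD_D2 over KDM5_KD_4h. The replicate block gave 2 for KDM5_KD_D2 over Control_D2, 6 for Control_4h over Control_D0, 2 for Control_D2 over Control_D0 and 4 for KDM5_KD_D2 over KDM5_KD_D0. The compared groups alone gave 0 for Control_4h over Control_D0. Leaving out 1 library gave 0 to 4 for KDM5_KD_D0 over Control_D0, 1 to 3 for Control_4h over Control_D0 and 0 to 5 for KDM5_KD_D0 over Control_D2. For these counts, shares of all peaks are not given for quantile scaling, the compared groups alone or left-out libraries.

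For KDM5A same-numbered libraries correlated at 0.0470 to 0.333 over 3 pairs, lower than for RNA, and whether the numbers pair them is not settled. The replicate block gave 1, 1 and 4 peaks at 4 hours over day 0, day 2 over day 0 and day 2 over 4 hours. In the last these were the Mmp2 peak at -29610 bp, Timp3 peaks at -98916 and -29885 bp and the Timp4 peak at -40988 bp. Shares of all peaks called under the block and the other KDM5A alternatives are not given. Quantile scaling gave 1 in each of the comparisons with day 0. For day 2 over 4 hours, log2(tags + 5) gave 1, no trend 0 and peaks with a mean of at least 20 tags 0, since both peaks called in the main fit average less. The compared groups alone gave 1, which was neither of the 2 peaks called in the main fit. Leaving out 1 library gave 0 to 1, 0 to 1 and 0 to 2. Other causes were not tested. Depth limits the KDM5A and KDM5C values, at 3.87 and 2.95 M tags in the shallowest libraries. Only 2 libraries a group stood behind each test.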
